A study of Homo sapiens with 9 samples.

Results

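The nuclear-encoded subunits of the oxidative phosphorylation complexes were followed in MDA-MB-231 cells, a line from a human breast adenocarcinoma that lacks oestrogen and progesterone receptors and HER2 amplification. They were chosen by gene symbol: 94 rows of a table of 26475 genes began with the naming roots of complex I (NDUFA, NDUFB, NDUFC, NDUFS, NDUFV), complex II (SDHA to SDHD), complex III (UQCR, CYC1), complex IV (COX4 to COX8) or complex V (ATP5). Leaving out 2 pseudogenes, 3 antisense genes, 2 read-through genes and 2 assembly factors left 85 subunits: 36 of complex I, 4 of complex II, 10 of complex III, 19 of complex IV and 16 of complex V. NDUFA4 and NDUFA4L2 carry complex I names but were placed with complex IV, where the protein NDUFA4 is now known to sit. The labels name total RNA and give no selection step. None of the 13 protein genes of the mitochondrial genome had a row, and those partners were not analysed here.

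RNA was sequenced from 3 groups of 3 libraries, described as separate batches of cells. ACSL4 knockdown cells stably carried the lentiviral vector pLKO.1 with a short hairpin against ACSL4, an enzyme that joins long-chain polyunsaturated fatty acids to coenzyme A. PRGL493 cells were control cells given PRGL493, which the series describes as an inhibitor of ACSL4, at a dose, time and vehicle that the labels do not give. Control cells carried the empty pLKO.1 vector. All 3 groups were therefore transduced with the same vector backbone, the knockdown rested on the hairpin construct named, and the PRGL493 and control groups shared 1 engineered population. Spread between such batches is all that the p-values cover.

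Oxidative phosphorylation makes most of the ATP of resting cells. Complexes I and II pass electrons from NADH and succinate to coenzyme Q, complex III passes them on to cytochrome c, and complex IV gives them to oxygen. Complexes I, III and IV pump protons across the inner mitochondrial membrane, and complex V, the ATP synthase, lets them return through a rotor to make ATP. Each complex combines a few subunits that bind the redox centres or catalyse the reaction with many small accessory subunits. Here 13 nuclear-encoded subunits with such a central role were set apart as the catalytic and redox core, among them NDUFS1, NDUFS7, NDUFV1, NDUFV2, SDHA, SDHB, CYC1, UQCRFS1, ATP5A1 and ATP5B. That grouping was made with earlier results of these data known, so its counts are a description.

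Library totals ran from 37833345 to 43027190 rounded counts in ACSL4 knockdown, from 28673938 to 41310069 in PRGL493 and from 30845845 to 33020196 in control. ACSL4 itself had 29.5, 23.7 and 27.6 CPM (a count divided by its library's TMM-scaled total and set to a common scale) in ACSL4 knockdown, 333, 350 and 360 CPM in PRGL493 and 342, 339 and 366 CPM in control, so that the knockdown libraries carried their label's change and PRGL493 left the transcript at the control level (log2 fold change -0.01 ± 0.06 SE, edgeR adjusted p = 0.95). Of 8 line markers, VIM lay between 1610 and 1810 CPM in all 9 libraries and CD44 between 1260 and 1560 CPM. ESR1 and PGR did not exceed 0.155 CPM. Epithelial markers were not all low: KRT8 had 337 to 485 CPM, KRT18 359 to 441, EPCAM 8.7 to 30.5 and CDH1 0.42 to 2.04. In knockdown edgeR called EPCAM higher (0.74, adjusted p = 1.1e-06) and KRT8 lower (-0.24, adjusted p = 0.0073). In PRGL493 it called EPCAM (-0.86, adjusted p = 3.3e-07) and CDH1 (-1.57, adjusted p = 0.00013) lower and CD44 higher (0.21, adjusted p = 0.0011). Of 6 markers of other cell types, PTPRC and CD3E (lymphocytes), ALB (hepatocytes) and VWF (endothelium) did not exceed 0.428 CPM in any library, and PTPRC and CD3E had 0 counts in all control libraries. GFAP (astrocytes) had 3.44 to 4.06 CPM in ACSL4 knockdown, 2.75 to 2.94 CPM in PRGL493 and 4.64 to 5.89 CPM in control, and was called lower in knockdown (adjusted p = 0.015) and PRGL493 (adjusted p = 8e-05). PECAM1 (endothelium) had 1.1 to 1.63 CPM in ACSL4 knockdown, 2.17 to 3.11 CPM in PRGL493 and 2.11 to 2.17 CPM in control, and was called lower in knockdown (adjusted p = 0.039). The 6 together summed to 4.82 to 6.01 CPM in ACSL4 knockdown, 5.11 to 6.4 CPM in PRGL493 and 7.04 to 8.22 CPM in control; their part in the results was not tested. Knockdown replicate 2 stood apart: over all genes, transcripts up to 1444 bp lay at a median of 0.147 and those from 3566 bp at -0.16 on the log2 scale relative to the mean of the libraries, and 68 of the 79 tested subunits were at their highest of the 3 knockdown libraries there. Subunit transcripts are mostly short (median 705 bp), so values without this library are given beside some set counts and single subunits. Knockdown fold changes printed alone include this library and can be moved by it. The part of transcript length in the results was not tested.

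Of the 85 subunits, 79 passed the filter on low counts. The 6 that did not were tissue-restricted isoforms and ATP5L2, a retrocopy of ATP5L. COX4I2, COX6A2, COX7A1, COX8C and ATP5L2 had 0 counts in all 9 libraries, which allows at most 0.0684 to 0.105 CPM per library (3 counts), and COX7B2 had 0 to 2 counts. Together the subunits took up 0.515%, 0.59% and 0.525% of all counts in ACSL4 knockdown, 0.475%, 0.449% and 0.468% in PRGL493 and 0.5%, 0.498% and 0.494% in control. All 3 knockdown shares lay above the 3 control shares, and all 3 PRGL493 shares lay below them. These shares are of library totals without TMM scaling, which differed between the groups. The TMM factor was 1.019 in knockdown replicate 1 and 0.984 to 0.9911 in control, so the small gap of that replicate depends on the scaling. Relative to the control mean, the median subunit stood at 0.00, 0.28 and 0.09 (log2) in knockdown replicates 1, 2 and 3, at -0.01, -0.12 and -0.04 in PRGL493 and at 0.01, 0.01 and 0.00 in control. Knockdown replicate 1 thus lay at the control level and the PRGL493 libraries at or just below it, with knockdown replicate 2 farthest from all others.

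**Figure D1:**
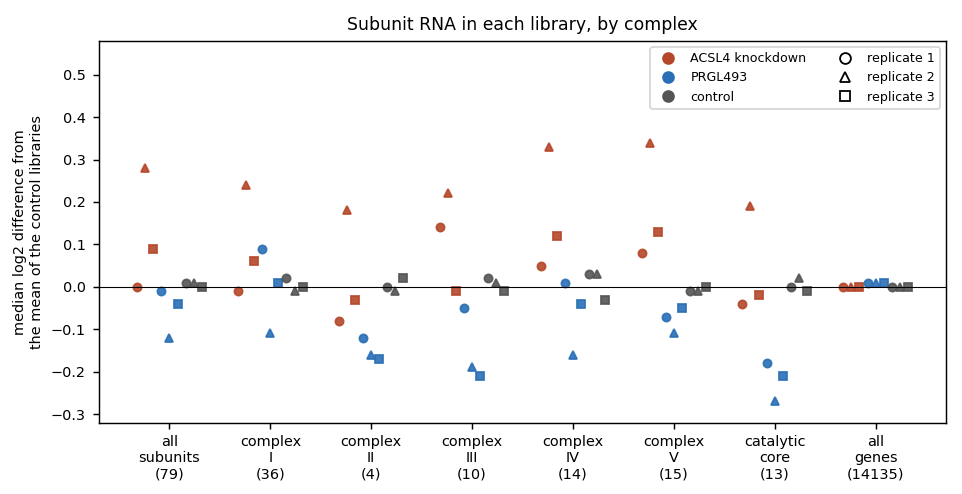
Median log2 difference of the tested subunits from the mean of the 3 control libraries (vertical axis), for all 79 subunits, each complex, the 13 core subunits and all 14135 genes tested (horizontal axis, number of genes in brackets). Each point is 1 library, coloured by group; knockdown replicate 2 (triangle) lies highest in every subunit group, and the core lies between -0.18 and -0.27 in the 3 PRGL493 libraries.

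In ACSL4 knockdown against control a set of mostly small subunits rose, and members of the catalytic core were not among them. That core was set apart with earlier results of these data known, so the split is a description. It leaves out ATP5C1, the gamma subunit of the complex V head, which was called higher. Of 79 subunits, 24 were called higher and 1, COX6C, was called lower (edgeR quasi-likelihood test, Benjamini-Hochberg adjusted p below 0.05 over 14135 genes). Over all genes tested 14.7% were called higher and 15.3% lower, 30.1% in all, so the subunits' 30.4% higher and 1.27% lower stand beside a nearly even split. The median subunit log2 fold change was 0.14, against 0.00 for all genes tested. By complex, 7 of 36 subunits rose in complex I, 4 of 10 in complex III, 5 of 14 in complex IV and 8 of 15 in complex V; in complex II edgeR called 0 of 4, with 1 of 4 at an unadjusted p below 0.05 and 0 called by DESeq2 or limma-voom. Of the 13 core subunits edgeR called 0 (0 at an unadjusted p below 0.05, 0 by DESeq2 and 0 by limma-voom), with a median of 0.06, while of the other 66 subunits 24 were called higher and 1 lower, with a median of 0.18.

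Without knockdown replicate 2 the same comparison gave 17 higher, all among the 24, and 4 lower (COX6C, NDUFB8, SDHC and CYC1), with a median of 0.08 over all subunits and -0.04 over the core. Without knockdown replicate 1 it gave 37 higher, 2 of them in the core, and without control replicate 1, 2 or 3 it gave 14, 14 and 15. After removal of a length and GC trend, 14 of the 24 were still called higher. The 11 that passed in all 21 alternative settings were NDUFS5, NDUFB1, NDUFA2, UQCR11, UQCRQ, UQCR10, COX7B, COX7C, ATP5L, ATP5J and ATP5C1.

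In PRGL493 against control the balance of calls was towards lower levels, but it turned after removal of a length and GC trend. Of the 79 subunits 18 were called lower and 7 higher, against 20.4% lower and 21.4% higher among all genes (41.8% called in all); the subunits' shares were 22.8% lower and 8.86% higher. The share called lower was thus near the background, and the share called higher was below it. The 18 include COX6B2 and NDUFA4L2, which had few counts and passed the filter through knockdown and control libraries. The median was -0.05, against 0.01 over all genes. Falls were most frequent in the core: 7 of its 13 members were called lower (NDUFV1, NDUFV2, NDUFS7, SDHB, CYC1, ATP5A1 and ATP5B), with a median of -0.21, whereas of the other 66 subunits 11 were called lower and 7 higher, with a median of -0.03. After removal of a length and GC trend, the core still had 7 called lower (median -0.15), but the other subunits had 20 higher and 8 lower (median 0.04). Over all subunits, higher calls then outnumbered lower ones. Leaving out control replicate 2 or PRGL493 replicate 2 left 4 core subunits called lower, with medians of -0.20 and -0.19. Because the core was set apart with earlier results known, its counts here are a description as well.

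Set directly against each other, ACSL4 knockdown exceeded PRGL493 in 44 subunits and was below it in 4 (NDUFC1, NDUFC2, COX6C and COX6B1), against 24.4% higher and 26.0% lower among all genes (50.4% called). The median was 0.23, against -0.01 over all genes. The fold changes of this contrast do not use control values, but the control libraries enter its estimate of spread; with only the 2 groups in the fit, 41 subunits were called higher and 3 lower. Complex III (9 of 10 higher), complex V (12 of 15), complex II (3 of 4) and complex IV (9 of 14) had higher shares than complex I. Complex I had 11 of 36 (30.6%), nearer the 24.4% over all genes. The core, which holds 7 complex I subunits, had 9 of 13 higher, with a median of 0.28. Without knockdown replicate 2, 40 of the 44 were still called higher. After removal of the length and GC trend 26 of the 44 were. Trend removal alone also gave more subunits called lower and a smaller median, with values in the closing section on processing. With both changes together, a setting chosen after the data were seen, the calls were 27 higher and 20 lower over all subunits, and 8 higher and 1 lower in the core.

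**Figure D2:**
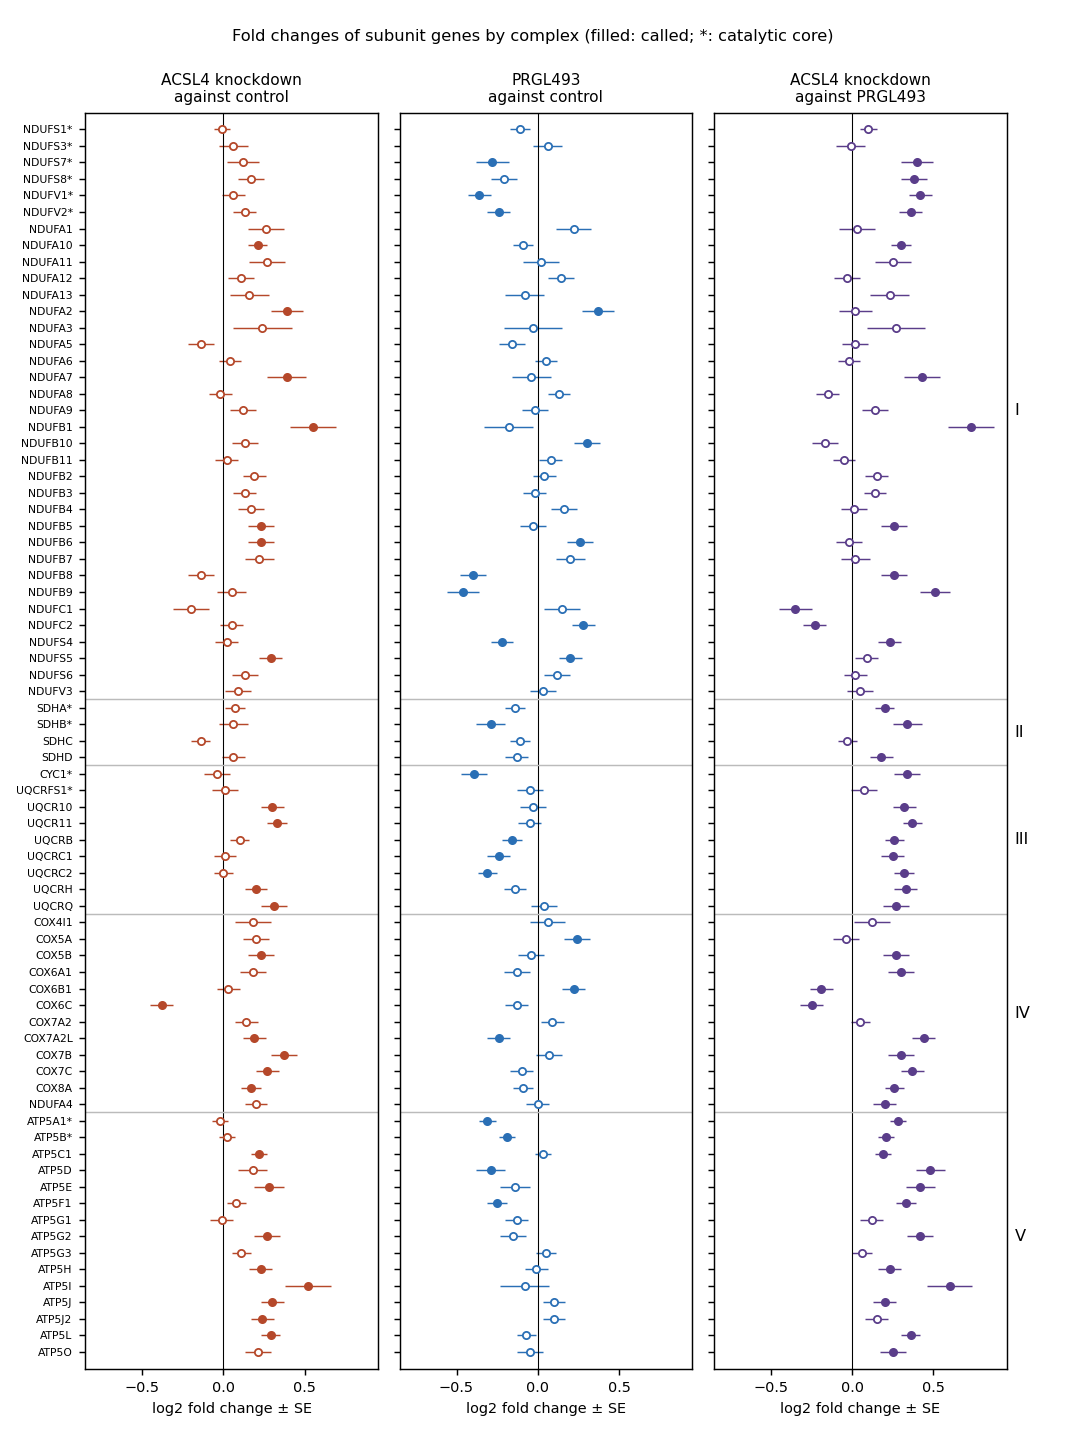
Log2 fold change with its standard error (horizontal axis) for tested subunits, listed by complex with the core (starred) first, for ACSL4 knockdown against control, PRGL493 against control and ACSL4 knockdown against PRGL493. Filled points have an adjusted p below 0.05; in the first panel no starred gene is filled, and in the second 7 are, all below 0. NDUFA4L2, COX6B2 and UQCRHL, with few counts, and 1 core subunit are not drawn.

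Some promoters of the subunits that moved most reliably are shown, since nuclear respiratory genes are known to be driven by the factors NRF1, GABPA (an ETS factor) and SP1 from promoters that often lack a TATA box. A RefSeq start (GRCh38.p14) was matched for 68 of the 85 subunits, with 82 start windows. The 2 genes with the smallest adjusted p that rose in knockdown (UQCR11 and ATP5L) and the 2 that fell in PRGL493 (NDUFV1 and UQCRC2), among those called in every alternative setting, and with a single start, are printed for the 150 bases before the start. Capitals mark matches to the NRF1 consensus (its palindrome with 1 free base), or to CCGGAAG (ETS type), GGGCGG (SP1 type), AAGATGGC (YY1 type) or TATAAA on either strand.
UQCR11, chr19:1605463-1605612, minus strand: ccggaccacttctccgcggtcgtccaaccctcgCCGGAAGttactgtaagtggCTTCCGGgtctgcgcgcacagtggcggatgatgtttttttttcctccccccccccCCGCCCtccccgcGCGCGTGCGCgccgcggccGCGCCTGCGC
ATP5L, chr11:118401456-118401605, plus strand: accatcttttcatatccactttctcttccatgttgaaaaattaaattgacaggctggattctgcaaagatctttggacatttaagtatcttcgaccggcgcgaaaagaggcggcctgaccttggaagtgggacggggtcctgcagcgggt
NDUFV1, chr11:67606786-67606935, plus strand: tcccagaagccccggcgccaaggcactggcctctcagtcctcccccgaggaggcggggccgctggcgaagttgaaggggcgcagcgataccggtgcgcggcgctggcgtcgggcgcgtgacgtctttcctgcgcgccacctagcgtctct
UQCRC2, chr16:21953211-21953360, plus strand: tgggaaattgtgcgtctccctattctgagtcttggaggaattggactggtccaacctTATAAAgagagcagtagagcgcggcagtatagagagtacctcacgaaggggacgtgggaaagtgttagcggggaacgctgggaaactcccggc
UQCR11 held 5 such matches (2 of the NRF1 type, 2 of the ETS type and 1 of the SP1 type), UQCRC2 held 1 TATAAA, and ATP5L and NDUFV1 held 0 in these letters. In the 250 bases before the start, the NRF1 consensus occurred in 17.1% of the subunits' windows and 5.07% of all 35116 windows. CCGGAAG occurred in 22.0% and 8.52%, GGGCGG in 54.9% and 42.6%, AAGATGGC in 2.44% and 1.36%, and TATAAA in 8.54% and 10.7%. The motifs overlap each other in none of the 4 printed stretches, and a match is a description of letters, not a binding site. RNA of NRF1 itself was level across the groups (22.5, 23.2 and 22.6 CPM in ACSL4 knockdown, 23.6, 24.4 and 22.6 CPM in PRGL493, 22.3, 22.9 and 22.3 CPM in control).

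Complex I is an L-shaped enzyme with a peripheral arm that oxidises NADH and a membrane arm that pumps protons. NDUFV1, the core subunit that binds FMN and NADH, had 101, 118 and 107 CPM in ACSL4 knockdown, 83.9, 81.0 and 77.8 CPM in PRGL493 and 112, 102 and 98.3 CPM in control. Every PRGL493 library lay below every other library, and the log2 fold change against control was -0.36 ± 0.07 (SE, adjusted p = 0.00034); against knockdown, which exceeded it, the difference was 0.42 ± 0.07 (adjusted p = 5.1e-05). The neighbouring iron-sulphur subunit NDUFV2 fell by 0.24 ± 0.07 in PRGL493 (adjusted p = 0.013), and NDUFS7, which holds the last iron-sulphur cluster before coenzyme Q, fell by 0.28 ± 0.10 (adjusted p = 0.036). NDUFS1, the largest iron-sulphur subunit, had 83.8, 89 and 82.3 CPM in ACSL4 knockdown, 75.9, 78.6 and 83.5 CPM in PRGL493 and 86.1, 84.9 and 86.1 CPM in control, and passed in neither comparison (adjusted p = 0.9 for knockdown and 0.11 for PRGL493).

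Accessory subunits of complex I were called in both directions. NDUFB1, a small membrane-arm subunit, had 8.83, 6.72 and 5.82 CPM in ACSL4 knockdown, 4.55, 4.3 and 4.03 CPM in PRGL493 and 5.27, 4.71 and 4.68 CPM in control. The knockdown libraries were the 3 highest, with a log2 fold change of 0.55 ± 0.14 (adjusted p = 0.0066), the largest rise of any subunit in that comparison. NDUFS5, an accessory subunit held in the intermembrane space, had 55.8, 63.2 and 55.2 CPM in ACSL4 knockdown, 58.8, 49.9 and 54.7 CPM in PRGL493 and 46.4, 48.8 and 47.6 CPM in control. It rose in both, by 0.29 ± 0.07 in knockdown (adjusted p = 0.005) and 0.20 ± 0.07 in PRGL493 (adjusted p = 0.032). NDUFA2 also rose in both. It had 23.9, 30.4 and 22.9 CPM in ACSL4 knockdown, 27.7, 23.6 and 24.6 CPM in PRGL493 and 18.9, 20.1 and 20.0 CPM in control, with log2 fold changes of 0.39 ± 0.10 (adjusted p = 0.0071) and 0.37 ± 0.10 (adjusted p = 0.007). These comparisons share the control libraries, and NDUFA2 overlaps exons of IK and TMCO6 on the other strand.

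The membrane-arm subunits NDUFB8 and NDUFB9 fell in PRGL493. NDUFB8 had 53.5, 67.3 and 54.8 CPM in ACSL4 knockdown, 50.9, 47.8 and 47.7 CPM in PRGL493 and 67.0, 65.3 and 61.6 CPM in control. The PRGL493 libraries were the 3 lowest and differed from control by -0.40 ± 0.08 (adjusted p = 0.00051); knockdown replicates 1 and 3 lay below the control libraries and replicate 2 above them (-0.14 ± 0.08, adjusted p = 0.17; -0.26 without replicate 2, adjusted p = 0.001). NDUFB9 had 19.0, 23.3 and 17.2 CPM in ACSL4 knockdown, 14.3, 14.1 and 13.3 CPM in PRGL493 and 18.9, 19.3 and 19.1 CPM in control. Its log2 fold change in PRGL493, -0.46 ± 0.10 (adjusted p = 0.001), was the lowest among subunits above 1 CPM. In the other direction NDUFC2, which joins the membrane arm near the bend of the enzyme, had 59.4, 75.4 and 67.5 CPM in ACSL4 knockdown, 79.9, 78.7 and 78.5 CPM in PRGL493 and 65.8, 63.3 and 66.0 CPM in control, a rise in PRGL493 of 0.28 ± 0.07 (adjusted p = 0.004). NDUFB10 rose there by 0.30 ± 0.08 (adjusted p = 0.0077), NDUFB6 by 0.26 ± 0.08 (adjusted p = 0.016). NDUFC2 shares exons with a read-through gene, NDUFC2-KCTD14, so its counts may be split.

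Complex II, succinate dehydrogenase, also works in the citric acid cycle and has 4 subunits, all nuclear. SDHA, which binds FAD, had 216, 246 and 228 CPM in ACSL4 knockdown, 206, 203 and 190 CPM in PRGL493 and 230, 218 and 212 CPM in control. The PRGL493 libraries were the 3 lowest but missed the threshold against control (-0.14 ± 0.06, adjusted p = 0.058). SDHB, the iron-sulphur subunit, had 43.9, 59.3 and 47.5 CPM in ACSL4 knockdown, 41.3, 38.1 and 39.4 CPM in PRGL493 and 48.1, 48.9 and 47.8 CPM in control, a log2 fold change in PRGL493 of -0.29 ± 0.09 (adjusted p = 0.016). The knockdown difference was 0.06 ± 0.09 (adjusted p = 0.67), with replicate 2 above the control libraries and replicates 1 and 3 below them. SDHC and SDHD, the membrane anchors, passed against control in neither group (adjusted p from 0.072 to 0.57).

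In complex III, which passes electrons through cytochrome b, cytochrome c1 and an iron-sulphur protein, some large subunits fell in PRGL493 and small ones rose in knockdown. CYC1, cytochrome c1, had 110, 147 and 119 CPM in ACSL4 knockdown, 102, 95.4 and 99.7 CPM in PRGL493 and 131, 134 and 123 CPM in control. Its log2 fold change in PRGL493 was -0.39 ± 0.08 (adjusted p = 0.0023); in knockdown the difference was -0.04 ± 0.08 (adjusted p = 0.73) and, without replicate 2, -0.17 (adjusted p = 0.013). The large core proteins, which are relatives of mitochondrial processing peptidases, moved alike in PRGL493: UQCRC2 had 107, 119 and 108 CPM in ACSL4 knockdown, 89.9, 87.1 and 91.4 CPM in PRGL493 and 105, 114 and 114 CPM in control, a log2 fold change of -0.31 ± 0.06 (adjusted p = 0.00036). UQCRC1 had 117, 148 and 123 CPM in ACSL4 knockdown, 113, 107 and 106 CPM in PRGL493 and 130, 133 and 123 CPM in control, a log2 fold change of -0.24 ± 0.07 (adjusted p = 0.015). UQCRFS1, the Rieske iron-sulphur protein, was an exception with 68.2, 87.9 and 71.2 CPM in ACSL4 knockdown, 74.5, 70.4 and 71.8 CPM in PRGL493 and 74.9, 75.5 and 74.8 CPM in control (adjusted p = 0.91 and 0.6).

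Of the small subunits of complex III, UQCR10, UQCR11 and UQCRQ rose in knockdown in every alternative setting. UQCRH was called higher there too, but not in every setting. It had 71.1, 80.9 and 68.6 CPM in ACSL4 knockdown, 62.5, 57.5 and 54.9 CPM in PRGL493 and 65.9, 63.0 and 63.7 CPM in control. UQCRB did not pass in knockdown (0.10 ± 0.06, adjusted p = 0.22) and fell in PRGL493 by 0.16 ± 0.06 (adjusted p = 0.038). UQCR11, encoded at chr19:1597172-1605490 on the minus strand (GRCh38), had 51.9, 55.7 and 48.7 CPM in ACSL4 knockdown, 42.1, 37.9 and 40.3 CPM in PRGL493 and 42.7, 41.8 and 40.0 CPM in control. All 3 knockdown libraries exceeded the other 6 (0.33 ± 0.06 against control, adjusted p = 0.0011; 0.28 without replicate 2), and they differed from PRGL493 by 0.37 ± 0.06 (adjusted p = 0.00014). UQCR10 had 24.4, 24.7 and 24.5 CPM in ACSL4 knockdown, 21.5, 18.5 and 18.8 CPM in PRGL493 and 19.8, 18.9 and 21.2 CPM in control. It rose in knockdown by 0.30 ± 0.07 (adjusted p = 0.0063), and its 3 knockdown libraries, replicate 2 included, lay closer together than those of the other groups. UQCRQ, which helps to hold cytochrome b, had 32.5, 35.0 and 30.1 CPM in ACSL4 knockdown, 28.4, 25.5 and 26.7 CPM in PRGL493 and 28.4, 26.4 and 24.1 CPM in control (0.31 ± 0.08, adjusted p = 0.0057 in knockdown). In PRGL493 the log2 fold changes of UQCR11, UQCR10 and UQCRQ were -0.05, -0.03 and 0.04, with adjusted p = 0.61, 0.8 and 0.75 in the same edgeR test. UQCRHL, a copy of UQCRH with 42 to 122 counts per library, cannot be separated from it with certainty.

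**Figure D3:**
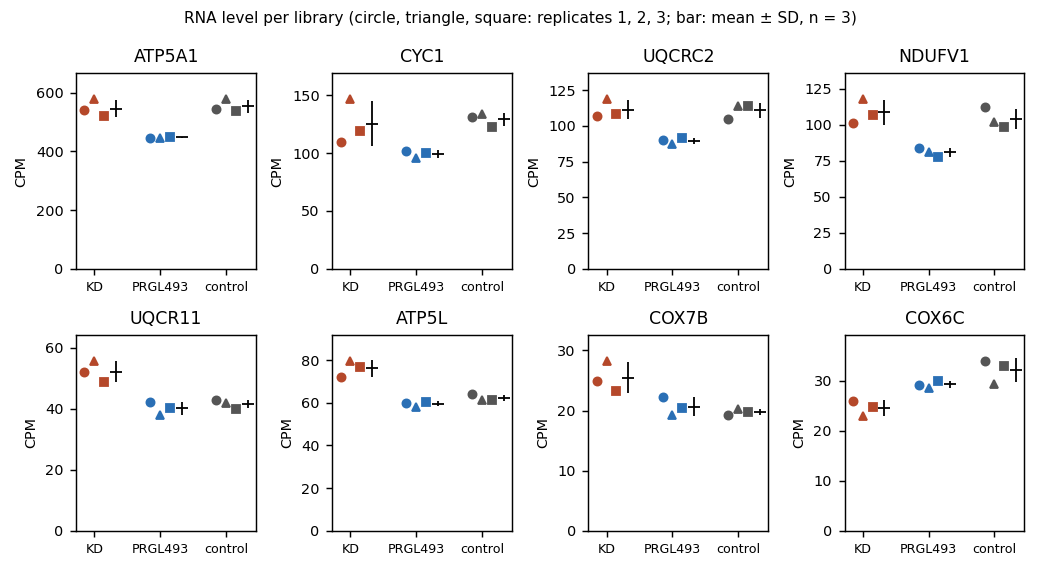
CPM (vertical axis, from 0) of 8 subunits in each library of ACSL4 knockdown (KD), PRGL493 and control; the bar beside each group is the mean ± SD of 3 libraries. In the upper row (ATP5A1, CYC1, UQCRC2, NDUFV1) the PRGL493 libraries are the lowest, and in the lower row UQCR11, ATP5L and COX7B are highest in knockdown while COX6C is lowest there.

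Complex IV, cytochrome c oxidase, has its catalytic subunits in the mitochondrial genome, and its nuclear subunits come in ubiquitous and tissue-specific isoforms. COX7B, a small transmembrane subunit, had 25, 28.3 and 23.2 CPM in ACSL4 knockdown, 22.3, 19.2 and 20.5 CPM in PRGL493 and 19.2, 20.3 and 19.8 CPM in control. The knockdown libraries were the 3 highest (0.37 ± 0.08, adjusted p = 0.0026). COX7C, another of these, had 34.6, 34.4 and 30.8 CPM in ACSL4 knockdown, 26.7, 24.3 and 26.1 CPM in PRGL493 and 28.1, 27.9 and 26.6 CPM in control (0.27 ± 0.07, adjusted p = 0.0055). COX6C went against both: it had 26.0, 22.9 and 24.7 CPM in ACSL4 knockdown, 29.2, 28.6 and 30.0 CPM in PRGL493 and 34.0, 29.4 and 32.9 CPM in control. It was lowest in all 3 knockdown libraries, replicate 2 lowest of all, with a log2 fold change of -0.38 ± 0.07 (adjusted p = 0.00067). COX6C has 17 named pseudogenes, the most of any subunit, so part of its reads may be placed elsewhere.

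COX7A2L, a COX7A2 relative that takes part in joining complexes III and IV into supercomplexes, had 91.5, 113 and 95.7 CPM in ACSL4 knockdown, 73.5, 74.4 and 74.0 CPM in PRGL493 and 84.3, 92.1 and 86.5 CPM in control. It fell in PRGL493 (-0.24 ± 0.07, adjusted p = 0.0097), was called higher in knockdown (0.19 ± 0.07, adjusted p = 0.045; 0.10 and adjusted p = 0.18 without replicate 2), and differed between knockdown and PRGL493 by 0.44 ± 0.07 (adjusted p = 6.5e-05). COX4I1, the subunit through which ATP inhibits the enzyme, had 128, 186 and 153 CPM in ACSL4 knockdown, 151, 139 and 140 CPM in PRGL493 and 142, 135 and 135 CPM in control, with the spread of knockdown exceeding its difference from control (adjusted p = 0.23). COX5A had 33.3, 42.2 and 39.7 CPM in ACSL4 knockdown, 41.8, 37.4 and 39.3 CPM in PRGL493 and 31.3, 35.0 and 33.8 CPM in control, and rose in PRGL493 (0.24 ± 0.08, adjusted p = 0.024), as did COX6B1 (0.22 ± 0.07, adjusted p = 0.014).

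The ubiquitous isoforms of complex IV were the ones detected. Per length, COX4I1 stood at 173 CPM per kb in control, COX6A1 at 169, COX8A at 137, COX7A2 at 88.7, COX7A2L at 78.8, COX6B1 at 70.0 and COX7B at 32.7, while the forms known from muscle, lung or testis, COX6A2, COX7A1, COX4I2 and COX8C, had 0 counts. COX6B2, a testis form, had 19, 17 and 26 counts in ACSL4 knockdown, 9, 7 and 9 in PRGL493 and 21, 24 and 17 in control, and was called lower in PRGL493 (adjusted p = 0.0041). NDUFA4L2, a paralogue of NDUFA4 known to be induced by hypoxia, had 7, 23 and 13 counts in ACSL4 knockdown, 4, 1 and 2 in PRGL493 and 10, 12 and 12 in control, and was also called lower there (adjusted p = 0.006). Both stayed below 1 CPM in every library, near the detection limit. They passed the filter through knockdown and control libraries, where they were higher, so their calls are a description. NDUFA4L2 was also among those called higher in knockdown against PRGL493. NDUFA4 itself, at 15.6 CPM per kb in control, passed against control in neither group (adjusted p = 0.051 and 0.98).

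Complex V has a catalytic F1 head, a c ring that turns in the membrane, and a peripheral stalk that holds the head still. ATP5A1, the alpha subunit of the head, lies at chr18:46080248-46104334 on the minus strand and was the highest subunit per length (284 CPM per kb in control). It had 539, 577 and 519 CPM in ACSL4 knockdown, 446, 446 and 450 CPM in PRGL493 and 543, 579 and 537 CPM in control. The PRGL493 libraries lay within 4 CPM of each other and below all others, a log2 fold change of -0.31 ± 0.05 (adjusted p = 0.00016), while knockdown did not pass (-0.02 ± 0.05, adjusted p = 0.8) and exceeded PRGL493 by 0.28 ± 0.05 (adjusted p = 0.00021). ATP5B, the catalytic beta subunit, had 453, 510 and 459 CPM in ACSL4 knockdown, 420, 402 and 403 CPM in PRGL493 and 466, 473 and 463 CPM in control, with a log2 fold change in PRGL493 of -0.19 ± 0.05 (adjusted p = 0.0061). ATP5F1, the b subunit of the stalk, had 142, 175 and 160 CPM in ACSL4 knockdown, 126, 123 and 130 CPM in PRGL493 and 149, 151 and 151 CPM in control, a log2 fold change of -0.25 ± 0.06 (adjusted p = 0.0047).

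ATP5C1, the gamma subunit that forms the rotating central stalk inside the same head, rose instead in knockdown. It had 189, 215 and 191 CPM in ACSL4 knockdown, 175, 169 and 176 CPM in PRGL493 and 168, 172 and 170 CPM in control, with a log2 fold change of 0.22 ± 0.05 in knockdown (adjusted p = 0.0054) and 0.03 ± 0.05 in PRGL493 (adjusted p = 0.73). ATP5L, subunit g of the membrane part, had 72.0, 79.7 and 76.6 CPM in ACSL4 knockdown, 60.0, 58.1 and 60.2 CPM in PRGL493 and 64.0, 61.5 and 61.3 CPM in control. Its rise in knockdown of 0.29 ± 0.06 had the smallest adjusted p of the subunits called higher (0.00088), and its difference from PRGL493 was 0.36 ± 0.06 (adjusted p = 4.9e-05). ATP5J, coupling factor 6 of the stalk, had 33.9, 38.3 and 32.0 CPM in ACSL4 knockdown, 31.4, 27.9 and 31.1 CPM in PRGL493 and 27.8, 27.9 and 28.6 CPM in control (0.30 ± 0.07, adjusted p = 0.0052 in knockdown). ATP5J overlaps exons of GABPA on the other strand. Of the 3 genes for the identical c subunit, ATP5G2 was called higher in knockdown (0.27 ± 0.08, adjusted p = 0.014) and ATP5G1 and ATP5G3 were not (adjusted p = 0.97 and 0.2); per length ATP5G3 was the highest in control (109 CPM per kb), then ATP5G2 (50.1) and ATP5G1 (32.9).

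Transcript length went with both fold changes. Across the 79 subunits Spearman's rho between length and log2 fold change was -0.32 in knockdown and -0.38 in PRGL493, as a description over genes that share libraries and base composition; without knockdown replicate 2 the first was -0.34, and after removal of the length and GC trend the values were -0.10 and -0.39. The core transcripts are longer (median 1510 bp) than those of the other subunits (median 681 bp). Above 900 bp, 0 of 11 core and 5 of 17 other subunits were called higher in knockdown (medians 0.02 and 0.18), and 7 of 11 core and 5 of 17 other subunits were called lower in PRGL493 (medians -0.24 and -0.09). Up to 900 bp there were 2 core subunits, and the medians of core and other subunits were 0.12 and 0.18 in knockdown and -0.07 and -0.02 in PRGL493. The cut at 900 bp was an arbitrary choice. These counts are a description, and the part of length in the difference between core and other subunits was not tested.

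**Figure D4:**
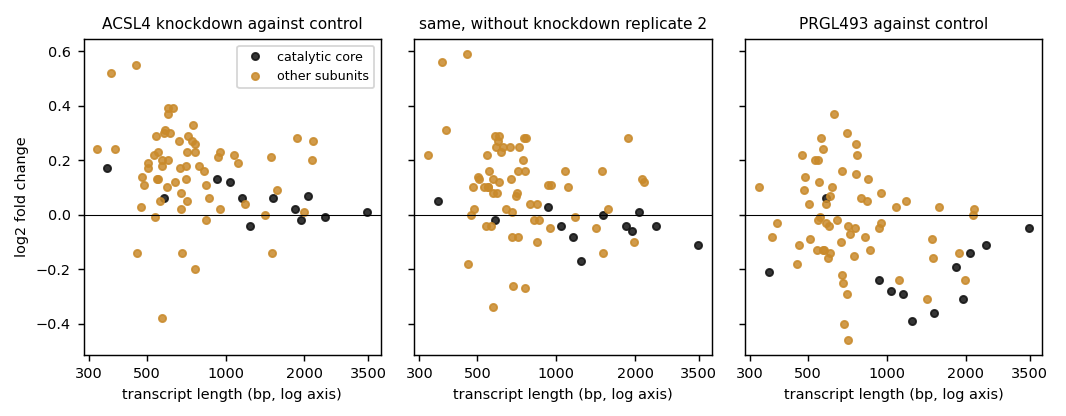
Log2 fold change (vertical axis) of the same subunits against transcript length in bp (horizontal log axis), for ACSL4 knockdown against control, the same without knockdown replicate 2, and PRGL493 against control. Black points are core subunits; the medians over all 13 core subunits, 1 of them not drawn, were 0.06, -0.04 and -0.21 in the 3 comparisons.

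Lists of genes that serve the complexes were counted in the same way, to be read against the shares over all genes (14.7% higher and 15.3% lower in knockdown, 21.4% and 20.4% in PRGL493, 24.4% and 26.0% between knockdown and PRGL493). Of 77 mitochondrial ribosomal proteins, which translate the mitochondrial-genome subunits, 17 (22.1%) were called higher and 1 (1.3%) lower in knockdown (median 0.13), 5 (6.49%) higher and 19 (24.7%) lower in PRGL493 (median -0.07), and 42 (54.5%) higher and 4 (5.19%) lower between knockdown and PRGL493 (median 0.22). Of 54 assembly factors, 12 (22.2%) were called higher and 2 (3.7%) lower in knockdown, 3 (5.56%) higher and 14 (25.9%) lower in PRGL493, and 22 (40.7%) higher and 3 (5.56%) lower between knockdown and PRGL493. Without knockdown replicate 2 the ribosomal proteins had 10 higher and 4 lower in knockdown, and the assembly factors 9 higher and 5 lower; after trend removal PRGL493 had 16 higher and 15 lower ribosomal proteins and 10 higher and 12 lower assembly factors. COX19, a copper-delivery factor for complex IV, had 16.4, 15 and 16.3 CPM in ACSL4 knockdown, 11.8, 11.4 and 9.76 CPM in PRGL493 and 8.64, 6.98 and 8.56 CPM in control, rising by 0.98 ± 0.10 and 0.45 ± 0.10 (adjusted p = 1.4e-06 and 0.0021). NDUFAF3, an early assembly factor of complex I, rose in knockdown by 0.62 ± 0.07 (adjusted p = 8.9e-06). LRPPRC, which stabilises mitochondrial messenger RNAs, had 354, 340 and 337 CPM in ACSL4 knockdown, 210, 211 and 214 CPM in PRGL493 and 315, 314 and 314 CPM in control, a log2 fold change in PRGL493 of -0.57 ± 0.04 (adjusted p = 3.9e-08). Of 15 genes for cytochrome c and coenzyme Q synthesis, 0 were called higher and 5 (33.3%) lower in knockdown (median -0.05), 0 higher and 5 (33.3%) lower in PRGL493 (median -0.13), and 5 higher and 4 lower between knockdown and PRGL493. The counts of 0 were edgeR's, with 0 and 1 higher at an unadjusted p below 0.05 in knockdown and PRGL493, and 0 by DESeq2 or limma-voom in both. Among these genes CYCS, cytochrome c itself, fell in PRGL493 by 0.40 ± 0.06 (adjusted p = 7.2e-05). Of 14 citric acid cycle enzymes, 1 was called higher and 2 (14.3%) lower in knockdown (median -0.01), 1 higher and 4 (28.6%) lower in PRGL493 (median -0.09), and 6 higher and 4 lower between knockdown and PRGL493. Of 5 genes for the phosphate and adenine nucleotide carriers and the ATPase inhibitor, 1 was called higher in knockdown and 1 in PRGL493. Of 3 subunits whose symbols lie outside the naming roots (NDUFAB1, USMG5 and C14orf2), 0 were called against control by edgeR, DESeq2 or limma-voom in either group (with edgeR, 3 at an unadjusted p below 0.05 in knockdown, 0 in PRGL493), and 2 were called higher in knockdown against PRGL493.

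Of 12 transcriptional regulators of respiratory genes, 6 were called lower and 1 (8.33%) higher in PRGL493, and 1 (8.33%) lower in knockdown, against 20.4% lower and 21.4% higher in PRGL493 and 15.3% lower in knockdown over all genes; after trend removal 4 were called lower in PRGL493. The coactivator PPARGC1A had 7.39, 5.48 and 6.36 CPM in ACSL4 knockdown, 3.65, 4.13 and 4.31 CPM in PRGL493 and 6.09, 5.87 and 6.76 CPM in control, a log2 fold change in PRGL493 of -0.64 ± 0.13 (adjusted p = 0.00081). Its relative PPARGC1B fell by 0.81 ± 0.13 (adjusted p = 0.00015). Their partner receptor ESRRA had 71.1, 84.6 and 73.4 CPM in ACSL4 knockdown, 57.9, 59.7 and 57.2 CPM in PRGL493 and 79.0, 78.6 and 73.3 CPM in control, a log2 fold change of -0.40 ± 0.07 (adjusted p = 0.00012). None of these 3 was called in knockdown (adjusted p = 0.83, 0.14 and 0.91). GABPA moved against them, with 41.4, 35.2 and 36.0 CPM in ACSL4 knockdown, 50.2, 51.9 and 59.4 CPM in PRGL493 and 40.4, 43.9 and 47.5 CPM in control (0.29 ± 0.08 in PRGL493, adjusted p = 0.0077; -0.23 ± 0.08 in knockdown, adjusted p = 0.043, which became 0.098 without knockdown replicate 2 and 0.061 after trend removal). Whether these regulators had a part in the subunits' levels was not tested.

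RNA levels do not give the amounts or activity of the complexes, and in bulk RNA fewer cells with a transcript and less of it per cell cannot be told apart. Exons of 24 subunits overlap another gene on the same strand, 34 overlap one on the other strand and 44 have named pseudogenes, and the labels do not say whether counting used the strand, so those counts are less certain.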

How the data were processed

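RNA-seq of 9 MDA-MB-231 libraries was used, in 3 groups of 3 taken from the sample titles. The authors deposited 1 table of 26475 gene symbols with an estimated count per library, not scaled for depth. Between 10% and 11.3% of the values per library were not whole, so the deposited values are expected counts, which were rounded to whole numbers. RNA was extracted with Trizol, per the labels' protocols, and the genome build was GRCh38, per the submitters' processing notes. Aligner, counting tool and strand setting were not stated in those notes, the labels or the table.

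Genes passing edgeR's filterByExpr (14135; minimum count 10) were scaled with TMM and fitted with edgeR 4.0.16 (glmQLFit, robust, R 4.3.3) over all 9 libraries with group as the term, leaving 6 residual degrees of freedom. The Benjamini-Hochberg adjustment covered the 14135 tested genes in each comparison; an adjusted p under 0.05 made a call. CPM are counts scaled to a common total with TMM factors; SE is the standard error of the log2 fold change. Pairs of libraries within a group had a chi-square per degree of freedom from 4.03 to 34.1, above sampling noise, and all 9 were used. Lengths and overlaps came from GENCODE v29 (GRCh38), promoters from RefSeq (GRCh38.p14); length is the median over basic protein-coding transcripts. The scripts were tested on simulated data.

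Alternatives were other scalings, filters and tests (DESeq2 1.42.0, limma-voom 3.58.1), fits of 2 groups, a replicate block, removal of a length and GC trend, and leaving out each library. Members and lists were chosen with earlier results of these data known. Values in all libraries are given for the 3 called members per complex and comparison with the smallest adjusted p, the 5 with the smallest in ACSL4 knockdown against PRGL493, and fixed core subunits; other members named with all 9 values (NDUFC2) and other called ones were chosen after their values were seen. Of the pathway lists, genes are named from the 3 with the smallest adjusted p per comparison; NRF1 was named for its motif. For 1 subunit, which counts within its groups, no values of its own are reported here.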

Additional observations from a re-analysis of the deposited data

How the results depend on the processing

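For ACSL4 knockdown against control, leaving out 1 library gave 14 to 37 subunits called higher, 1 to 4 lower and medians of 0.08 to 0.19; 14, 14 and 15 were higher without control replicate 1, 2 or 3, and 37 without knockdown replicate 1. With the length and GC trend removed, 14 of the 24 were still called higher, and 5 were called lower. For PRGL493 against control, leaving out 1 library gave 3 to 10 higher, 11 to 22 lower and medians of -0.10 to -0.04; removing the trend gave 20 higher and a median of 0.02. For ACSL4 knockdown against PRGL493, leaving out 1 library gave 39 to 48 higher, 2 to 6 lower and medians of 0.14 to 0.26; removing the trend gave 15 lower and a median of 0.10, and upper-quartile factors gave 2 lower.

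Trend removal together with leaving out knockdown replicate 2, chosen after seeing the data, gave 15 higher, 7 lower and a median of 0.03 for knockdown against control, 22 higher and a median of 0.02 for PRGL493 against control, and 27 higher, 20 lower and a median of 0.03 for knockdown against PRGL493. It turned the sign of UQCRFS1 in knockdown against control (-0.12) and of ATP5C1 (-0.01), ATP5J (-0.04), NDUFA2 (-0.25) and NDUFS5 (-0.13) in knockdown against PRGL493; the cause was not tested.

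Replicate numbers paired the samples weakly at most. For control and knockdown, correlations of same-numbered deviations were 0.108, 0.152 and 0.062, and those of differently numbered ones ran from -0.138 to 0.025. For the other pairs of groups the same-numbered correlations were below 0. A replicate block gave 23 higher and 1 lower, 7 higher and 17 lower, and 44 higher and 4 lower in the 3 comparisons. With the block and the trend removed together the values were 5 lower in knockdown against control, 18 higher with a median of 0.01 in PRGL493 against control, and 14 lower with a median of 0.10 in knockdown against PRGL493.

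For 90 fold changes of single subunits, 1792 of 1883 alternative values stayed on the same side of the threshold. Of the rest, 52 were no longer called, 34 became called and 5 were counted as reversed. Sign changes among values that were not called, 68 of them, were not counted as reversals. Scaling by library totals gave 2660 genes higher and 1785 lower in knockdown against control, and upper-quartile factors 2590 and 1823, against 2083 and 2167 with TMM; in knockdown against PRGL493 upper-quartile factors gave 4176 and 2976, against 3454 and 3676.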
